A study of Mus musculus with 36 samples.

Results

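The genes described here are 9 components of the pre-B cell receptor (pre-BCR) and B cell receptor (BCR) signalling pathway: Cd79a, Cd79b, Blnk, Syk, Btk, Lyn, Plcg2, Cd22 and Cd72. They were chosen by symbol and function, and each has 1 row in each of 3 RNA-seq tables, which hold 46078, 35896 and 18721 rows. All 9 passed the filter on low values in every table. On mm10 (GENCODE vM21) the signalling chains lie at chr7:24897381-24902197 on the plus strand (Cd79a, ENSMUSG00000003379) and chr11:106311341-106314762 on the minus strand (Cd79b, ENSMUSG00000040592), Blnk (ENSMUSG00000061132) at chr19:40928927-40994535 on the minus strand, Syk at chr13:52583173-52648792 on the plus strand and Btk at chrX:134542336-134583570 on the minus strand. Lyn lies at chr4:3678115-3813122 and Plcg2 at chr8:117498291-117635142, both on the plus strand, and Cd22 at chr7:30865402-30880342 and Cd72 at chr4:43446462-43454628, both on the minus strand. Cd72 overlaps Tesk1 and Cd22 overlaps the antisense gene Gm29439, each on the opposite strand. Btk, Lyn and Plcg2 overlap non-coding genes or pseudogenes, also on the opposite strand. The use of strand in counting is not stated, so the values of these genes may include reads of their neighbours. The study itself named some of the 9 genes from these libraries, so the choice is not independent of the data. RNA was measured in 24 mouse libraries that fall into 12 groups of 2, and Pax5 binding was measured by ChIP-seq in 6 libraries.

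The first table came from bone marrow of wild-type (WT) and Sirt7-/- mice of the 129Sv background, in which IgM- B-lineage cells were sorted as pro-B (CD43+) or pre-B (CD43-), with 1 pro-B and 1 pre-B library from each mouse. Sirt7-/- mice carry a germline deletion, so every cell type of the animal lacks the deacetylase, and the study used adult mice. The second table held Pax5-/- progenitors grown on OP9 stromal feeder cells with IL-7, SCF and FLT3-L and infected with a retrovirus carrying no insert (empty vector, EV), Pax5WT, Pax5 K198Q or Pax5 K198R. Infected cells were purified by a human CD4 tag on the vector. K198Q replaces a lysine of Pax5 by glutamine, which resembles an acetylated lysine, and K198R replaces it by arginine, which resembles a lysine that cannot be acetylated. The labels call these cells bone marrow cells and the methods of the study describe a fetal liver origin. The third table held cultured pro-B cells, either WT carrying EV or Sirt7-/- carrying EV, Pax5WT or K198R. The study describes the 129Sv line as its Sirt7-/- mice here too. Both retroviral systems express the insert at a level set by the vector and not by the Pax5 locus. The sorted libraries held 50004827 to 55536608 reads, recovered from the normalized values. The normalized totals were 28865461 to 30520853 per library for Pax5-/- cells and 27814214 to 30160880 for the cultured WT and Sirt7-/- cells, and their read depth is unknown. The source field of the sorted samples lists replicate 1 as pro-B and replicate 2 as pre-B throughout, so the stage was taken from the titles.

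The pre-BCR appears once a progenitor has made an immunoglobulin heavy chain: the heavy chain pairs with the surrogate light chain (Vpreb1, Vpreb2 and Igll1) and with the signalling chains CD79A and CD79B. Src-family kinases such as LYN phosphorylate the tails of the signalling chains, SYK docks there, and the adaptor BLNK gathers BTK and phospholipase C gamma 2 (Plcg2), which starts calcium signalling. CD22 and CD72 carry inhibitory motifs that recruit the phosphatase SHP-1 (Ptpn6). Pax5 is the transcription factor that commits progenitors to the B lineage, and Cd79a and Blnk are textbook targets of it. Sirt7 is an NAD-dependent deacetylase.

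The targeted genes were checked first. Sirt7 was at 2692 and 2533 normalized counts in the WT pro-B libraries and at 363 and 366 in the Sirt7-/- ones, a log2 fold change of -2.84 (SE 0.143, adjusted p = 0.00292, limma). In pre-B cells it was at 5613 and 5219 in WT and at 1066 and 821 in Sirt7-/-. At both stages each Sirt7-/- library lay far below each WT library. Cultured cells gave 1324 and 905 in WT EV and 336 and 387 in Sirt7-/- EV. In Pax5-/- cells the Pax5 row, in which reads of the vector and of the disrupted locus cannot be told apart, held 2201 and 2103 normalized counts with EV. It held 6458 and 6152 with Pax5WT, 8918 and 8963 with K198Q, and 21162 and 16609 with K198R. The K198R libraries therefore held 3-fold more Pax5 RNA than the Pax5WT libraries (log2 fold change 1.57, SE 0.118, adjusted p = 0.0029, limma) and 2.11-fold more than the K198Q libraries. In the comparisons of K198R with the other forms in Pax5-/- cells, the Pax5 form and the amount of Pax5 RNA cannot be told apart. The K198Q and Pax5WT groups were not called different in Pax5 RNA (0.5 on the log2 scale, adjusted p = 0.558, limma), although both K198Q libraries were higher. In Sirt7-/- cells Pax5 was at 43024 and 43259.6 normalized counts with Pax5WT and at 38690 and 45426 with K198R, which overlap (-0.04, adjusted p = 0.999, limma).

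Stage markers followed the titles for the pro-B list and in part for the pre-B list. All 5 pro-B markers were called lower in pre-B cells of both genotypes. Of 5 pre-B markers, 3 (Il2ra, Rag1 and Cd2) were called higher in both and none lower, while Igkc, the most abundant of that list, was at 234972 and 550267 normalized counts in WT pro-B and at 215431 and 240298 in WT pre-B libraries. Dntt, the terminal transferase of pro-B cells, was 161-fold lower in WT pre-B than in WT pro-B cells, and Il2ra, the CD25 chain of pre-B cells, was 7.28-fold higher. Among 4 plasma cell markers Jchain was called lower in pre-B cells (-4.97 on the log2 scale in WT and -4.08 in Sirt7-/-) and Sdc1 higher, and their summed level was 25866 and 65131 in the WT pro-B and 8960.4 and 9555 in the WT pre-B libraries. All 8 cell-cycle markers examined were called lower in pre-B cells of both genotypes. The second Sirt7-/- pre-B library stood apart, with 3838 normalized counts of Dntt and 4122 of Igll1, against 423 and 1324 in the first. Its summed level of erythroid markers, led by the globin Hba-a1, was 71916 normalized counts, against 8597 in the first Sirt7-/- and 5743 and 8273 in the WT pre-B libraries. The pro-B library of the same mouse also stood apart. Its summed erythroid level was 47575, against 10645 in the first Sirt7-/- and 16044 and 11626 in the WT pro-B libraries. Its summed myeloid level was 14590.3, against 66972 in the first Sirt7-/- and 84411 and 56733 in the WT pro-B libraries. Of the 10 markers of immature and mature B cells (Ighd, Cd74 and others), all 10 were called higher in WT pre-B cells and 9 in Sirt7-/- pre-B cells. Their summed level was 305095 and 188966 in the WT pre-B libraries and 443973 and 291107 in the Sirt7-/- ones, against 44765 to 58794 in the pro-B libraries. The most abundant of them was Cd74 in 3 of the 4 pre-B libraries and Ighd in the other. Of 10 T cell markers, 8 were called lower in WT pre-B cells, and of 10 myeloid markers 3 were called lower and 1, Itgam, was called higher. Syk, Btk, Lyn and Plcg2 are also expressed in myeloid cells. The summed myeloid level was 84411 and 56733 in WT pro-B and 24136 and 20648 in WT pre-B libraries, led by the granule gene Ngp in the former and by Itgam in the latter. The part of these cells in the results was not tested.

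Within a sorted library the 9 genes spanned a wide range of levels per kilobase of exon. In WT pro-B cells Cd79a was the highest, with a mean of 83004 normalized counts per kb, and Cd79b was next with 17283. Blnk (6096), Syk (5513), Plcg2 (4684) and Cd72 (3718) followed. Btk (2147), Lyn (2066) and Cd22 (1421) were the lowest. In WT pre-B cells Cd79a (163587 per kb) and Cd79b (57918 per kb) stayed first, Syk came next at 16130.4 per kb, and Btk was last at 2887 per kb.

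The first comparison asks how the pathway genes differ between the sorted pro-B and pre-B cells. Signalling by the pre-BCR was not measured. In WT cells 8 of the 9 genes were called higher in pre-B cells, Plcg2 being the exception, with 40.2% of all tested genes called in that comparison and 18.1% called higher. In Sirt7-/- cells 7 were called higher, the exceptions being Blnk and Plcg2, with 35.7% of all genes called and 16.5% called higher. In these sorted populations more expressing cells and more RNA per cell cannot be told apart. The median log2 fold change of the 9 genes was 1.05 in WT and 1.47 in Sirt7-/- cells, beside -0.04 over all tested genes in both. Leaving out the first WT pro-B library left 5 of the 8 calls in WT, and leaving out any other WT library left 6.

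The signalling chains both rose. Cd79a was at 117768 and 124105 normalized counts in WT pro-B and at 269668 and 207024 in WT pre-B libraries, a log2 fold change of 0.97 (SE 0.161, adjusted p = 0.00356, limma). Cd79b was at 24019.7 and 25445 in WT pro-B and at 86916 and 78846 in WT pre-B libraries, a log2 fold change of 1.74 (SE 0.0967, adjusted p = 0.000126, limma). Every pre-B library was above every pro-B library for both genes. Sirt7-/- cells gave log2 fold changes of 0.99 for Cd79a and 1.52 for Cd79b.

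Among the kinases, Syk, which docks on the phosphorylated chains, and Lyn, which phosphorylates them, rose by similar amounts. Syk was at 51798 and 51435 normalized counts in WT pro-B and at 146359.5 and 155665 in WT pre-B libraries (log2 fold change 1.55, SE 0.0684, adjusted p = 9.41e-05, limma). Lyn was at 7779.7 and 9047 in WT pro-B and at 23237 and 25924 in WT pre-B libraries (log2 fold change 1.55, SE 0.0978, adjusted p = 0.000148, limma). The replicates of both genes lay close together beside the gap between stages. Btk, the Tec-family kinase that activates Plcg2, rose less, from 6727 and 6792 to 8584 and 9600.2 in WT (log2 fold change 0.43, SE 0.091, adjusted p = 0.00996, limma). In Sirt7-/- cells the log2 fold changes were 1.56 for Syk, 1.47 for Lyn and 0.37 for Btk. The call of Btk was lost in WT without the first pro-B or the second pre-B library (adjusted p = 0.0526 and 0.0536). In Sirt7-/- cells it was lost with total-sum scaling (0.27, adjusted p = 0.0507), without a variance trend (adjusted p = 0.0632), and without either pro-B or the second pre-B library (adjusted p of 0.0747 to 0.0864, limma).

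The adaptor and the lipase that it recruits moved little or not detectably. Blnk was at 35584 and 37465 normalized counts in WT pro-B and at 43312 and 42847 in WT pre-B libraries, a log2 fold change of 0.24 (SE 0.0667, adjusted p = 0.0277, limma) that was not called with total-sum scaling (0.15, adjusted p = 0.107) or without a variance trend (adjusted p = 0.116). It was also lost when any 1 of the 4 WT libraries was left out (adjusted p of 0.0656 to 0.139, limma). In Sirt7-/- cells Blnk was at 38503 and 38560.2 in pro-B and at 40769 and 39044 in pre-B libraries and was not called. The stage effect of Blnk did not pass a test of difference between genotypes (interaction of -0.19 on the log2 scale, SE 0.0944, adjusted p = 0.923, limma). Plcg2 was at 19216 and 21045 in WT pro-B and at 19262 and 19796 in WT pre-B libraries, which overlap. The Sirt7-/- values of Plcg2 were 20116 and 21279.7 in pro-B and 21424 and 24417 in pre-B libraries and were not called different.

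Both inhibitory receptors rose. Cd72 was at 13319 and 12129 normalized counts in WT pro-B and at 39201 and 39580.2 in WT pre-B libraries (log2 fold change 1.63, SE 0.0948, adjusted p = 0.000126, limma). Cd22 was at 7010.4 and 7322 in WT pro-B and at 19281 and 11407 in WT pre-B libraries (log2 fold change 1.05, SE 0.259, adjusted p = 0.0173, limma). On the log2 scale Cd22 had the widest spread of the 9 genes in pre-B cells. Its call in WT was lost when either pro-B library or the first pre-B library was left out, with log2 fold changes of 0.67 to 1.08. In Sirt7-/- pre-B libraries Cd22 was at 28349 and 20088, against 9035 and 7884 in pro-B (log2 fold change 1.5, SE 0.259, adjusted p = 0.00535, limma). The 4 pre-B libraries fell in the same order for Cd22 as for the summed markers of immature and mature B cells, except that the 2 middle libraries changed places. Without the second Sirt7-/- pre-B library 6 of the genes were called in Sirt7-/- cells.

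**Figure D1:**
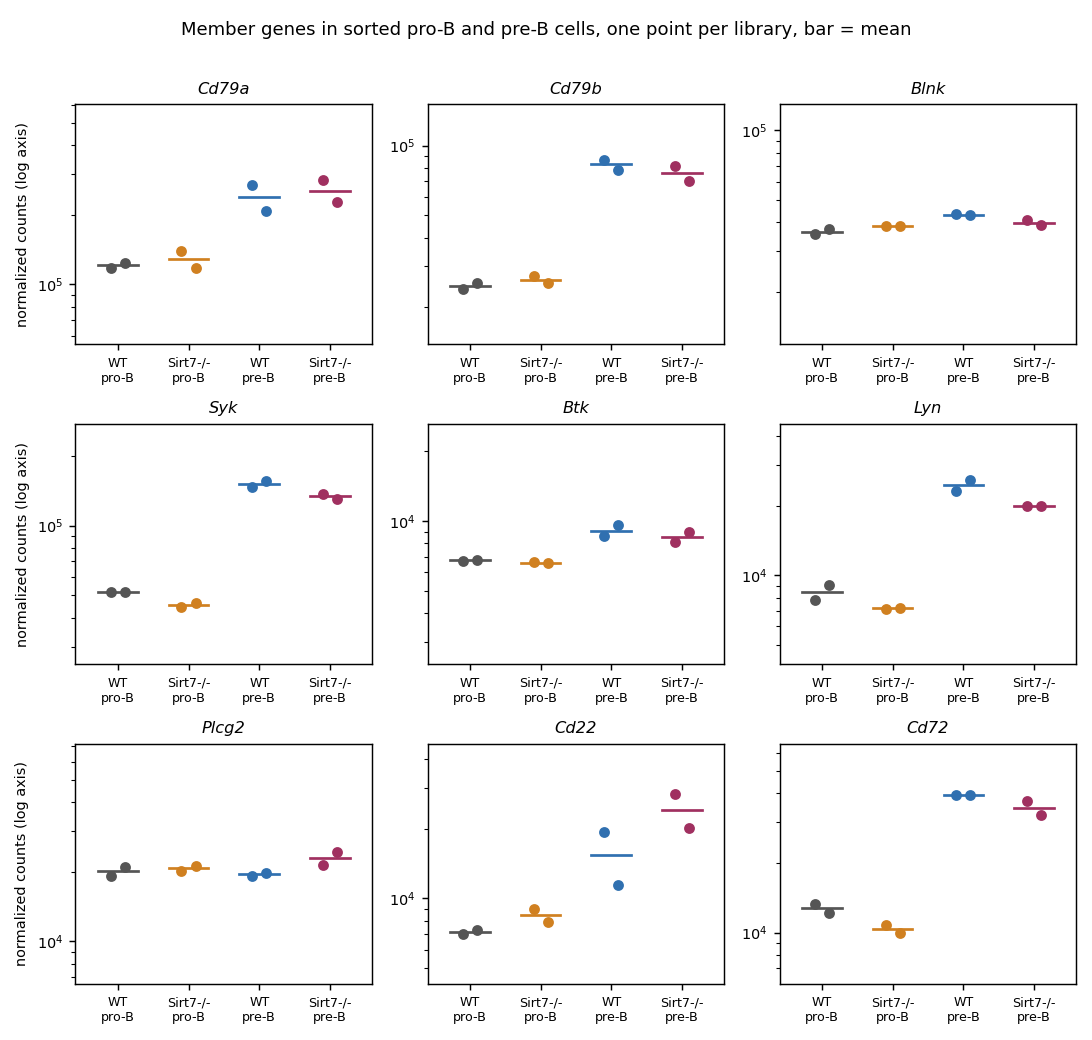
Normalized counts (log axis) of the 9 genes in the sorted populations of both genotypes, with 1 point for each of the 2 libraries per group and a bar at their mean. The pre-B points lie above the pro-B points for all genes except Plcg2, and by little for Blnk.

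The other genes of the pathway were taken from a list of 54, of which 53 passed the filter on low values in sorted cells. In WT pre-B cells 29 of them were called higher and 8 lower, where 18.1% of all genes were called higher and 22% lower. In Sirt7-/- pre-B cells 34 were called higher and 8 lower, where 16.5% of all genes were called higher and 19.2% lower, with list medians of 0.53 and 0.59 on the log2 scale. The surrogate light chain genes fell: Igll1 was 32.4-fold lower, Vpreb1 53-fold lower and Vpreb2 80.5-fold lower in WT pre-B cells. Ighm, the heavy chain itself, rose (320834 and 370545 in WT pro-B, 772917 and 784834 in WT pre-B). Among kinases and kinase regulators, Blk, Csk and Ptprc rose and Fyn and Pag1 fell in both genotypes. Among co-receptor genes Cr2 rose and Cd81 fell. Among adaptors 4 of 9 rose in WT cells, with Bank1 11-fold higher. Among 17 lipid kinase and calcium effector genes 11 rose and Orai1, the calcium channel subunit, fell. Of 13 inhibitor genes tested 6 rose in WT cells, among them Siglecg (2.81-fold), Ceacam1 (3.22-fold) and Fcgr2b (2.5-fold), and Cd5 fell. Cd5 is also a T cell gene and moved with the T cell markers.

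Loss of Sirt7 did not move any of the 9 genes past the threshold in sorted cells. In pro-B cells 0 of 9 were called, where 0.0623% of all tested genes were called, and 1048 genes had an unadjusted p under 0.05. In pre-B cells 0 of 9 were called beside 0.085% of all genes, with 2405 at an unadjusted p under 0.05. Neither edgeR nor DESeq2 on the recovered reads called any of the 9 at either stage. The log2 differences of the 9 genes lay between -0.3 (Cd72) and 0.24 (Cd22) in pro-B and between -0.3 (Lyn) and 0.69 (Cd22) in pre-B cells. Cd22 showed the largest of these, with 19281 and 11407 normalized counts in WT and 28349 and 20088 in Sirt7-/- pre-B libraries, and the highest Sirt7-/- and WT values were in the first replicate. No member passed the test of a stage-by-genotype difference, where 0.00567% of genes, 1 gene, were called (0 with mouse as a block). None of the 53 other pathway genes was called for genotype at either stage. In pre-B cells the 5 receptor and surrogate light chain genes had a median log2 difference of 1.79 with no gene called, and the second Sirt7-/- library was the highest of the pre-B libraries for Igll1 (494 and 926 in WT, 1324 and 4122 in Sirt7-/-).

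Pax5-/- cells lack the factor, and returning it asks which pathway genes respond to it. Blnk and Cd79a responded to all 3 forms, Cd79b to Pax5WT and K198R, and Btk and Cd22 to K198R. Against EV, Pax5WT raised 3 of the 9 genes (2.25% of tested genes were called higher and 3.25% called), K198Q raised 2 (0.869% higher, 0.922% called) and K198R raised 5 (3.87% higher, 9.92% called). No member was called lower against EV, where 1%, 0.0525% and 6.05% of genes were. The 3 comparisons share the EV libraries. Same-numbered cultured libraries deviated from their group means together, and a fit with the replicate number as a block called more genes. With the block 4 members were called for Pax5WT (10.1% of genes called), 2 for K198Q (363 of 13345 genes called) and 8 for K198R (21.2% of genes called). The calls that it added, among them Syk, Plcg2 and Cd72 lower with K198R, are given beside each gene.

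Blnk, the adaptor, was nearly absent without Pax5. Its normalized counts were 2.56 and 4.9 with EV, 915 and 954 with Pax5WT, 547 and 397 with K198Q, and 3586 and 3133 with K198R. Every library with a Pax5 form lay at least 80.9-fold above either EV library. The fitted log2 fold changes against EV were 7.67 for Pax5WT, 6.67 for K198Q and 9.51 for K198R (SE 0.268 each, adjusted p = 5.13e-05, 0.00015 and 9.46e-06, limma). The EV values are close to the floor of a few counts, so these folds depend on the pseudocount, and with a pseudocount of 10 they were 6.11, 5.12 and 7.94. Even with K198R the level of Blnk, 561 normalized counts per kb, was below that in every group of the other 2 tables, which were normalized separately (1534 or more per kb).

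Cd79a was expressed without Pax5, at 2282 and 2247 normalized counts with EV. It was at 7561 and 9491 with Pax5WT (log2 fold change 1.9, SE 0.113, adjusted p = 0.000245, limma). It was at 5321 and 5140.4 with K198Q (1.21, adjusted p = 0.00365) and at 13596 and 14080.5 with K198R (2.61, adjusted p = 2.65e-05, limma). The libraries of the 4 groups did not overlap for Cd79a. Cd79b moved less, from 4094 and 4267 with EV to 5365 and 6197 with Pax5WT and 7224 and 7693 with K198R. The Pax5WT change of Cd79b was at the threshold (0.46, SE 0.0975, adjusted p = 0.049, limma) and was not called without the filter, without a variance trend or when any 1 of the 4 libraries was left out (adjusted p of 0.0959 to 0.343, limma). That of K198R was 0.83 (adjusted p = 0.00237, limma). K198Q libraries held 4913 and 5201 counts of Cd79b and were not called.

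Btk was at 2616 and 2902 normalized counts with EV, 3211 and 3204 with Pax5WT, 2993 and 2986 with K198Q and 4388 and 4604 with K198R. The change with K198R was called (0.71, SE 0.0877, adjusted p = 0.00297, limma) and the others were not. Cd22 was at 1014 and 720.3 with EV and at 1986 and 1684 with K198R (1.1, SE 0.215, adjusted p = 0.0179, limma), and it was at 1024 and 1239 with Pax5WT and at 1090.5 and 798 with K198Q, neither called. The K198R call of Cd22 was lost without a variance trend (adjusted p = 0.054), without the second EV library (0.85, adjusted p = 0.0973) and without the first K198R library (0.98, adjusted p = 0.0609, limma). The K198Q libraries of Cd22 overlapped those with EV. Cd72, at 289 and 251 with EV, was at 418 and 428 with Pax5WT, at 412 and 341 with K198Q and at 197 and 141 with K198R. K198R was the one form with Cd72 libraries below EV, and no form was called different from EV for this gene. Under the block Cd72 was called higher with Pax5WT (0.65, adjusted p = 0.0399) and lower with K198R (-0.69, adjusted p = 0.0182, limma).

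Syk, Lyn and Plcg2 were called in none of the 6 comparisons among the Pax5-/- groups without the block. With the replicate block K198R was called lower than EV for Syk (-0.27, adjusted p = 0.0171) and Plcg2 (-0.33, adjusted p = 0.00988) and lower than K198Q for Plcg2 (-0.28, adjusted p = 0.0277, limma), while Lyn was called in none. Syk ranged from 7171 to 10629.7 normalized counts over the 8 libraries, Plcg2 from 12319 to 16762 and Lyn from 2250.3 to 4238. Neighbouring groups of Plcg2 overlapped throughout in the order of their means. The Lyn libraries with EV (4238 and 3946) were above all 6 others, and the K198R libraries of Lyn (3874 and 2250.3) lay far apart.

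**Figure D2:**
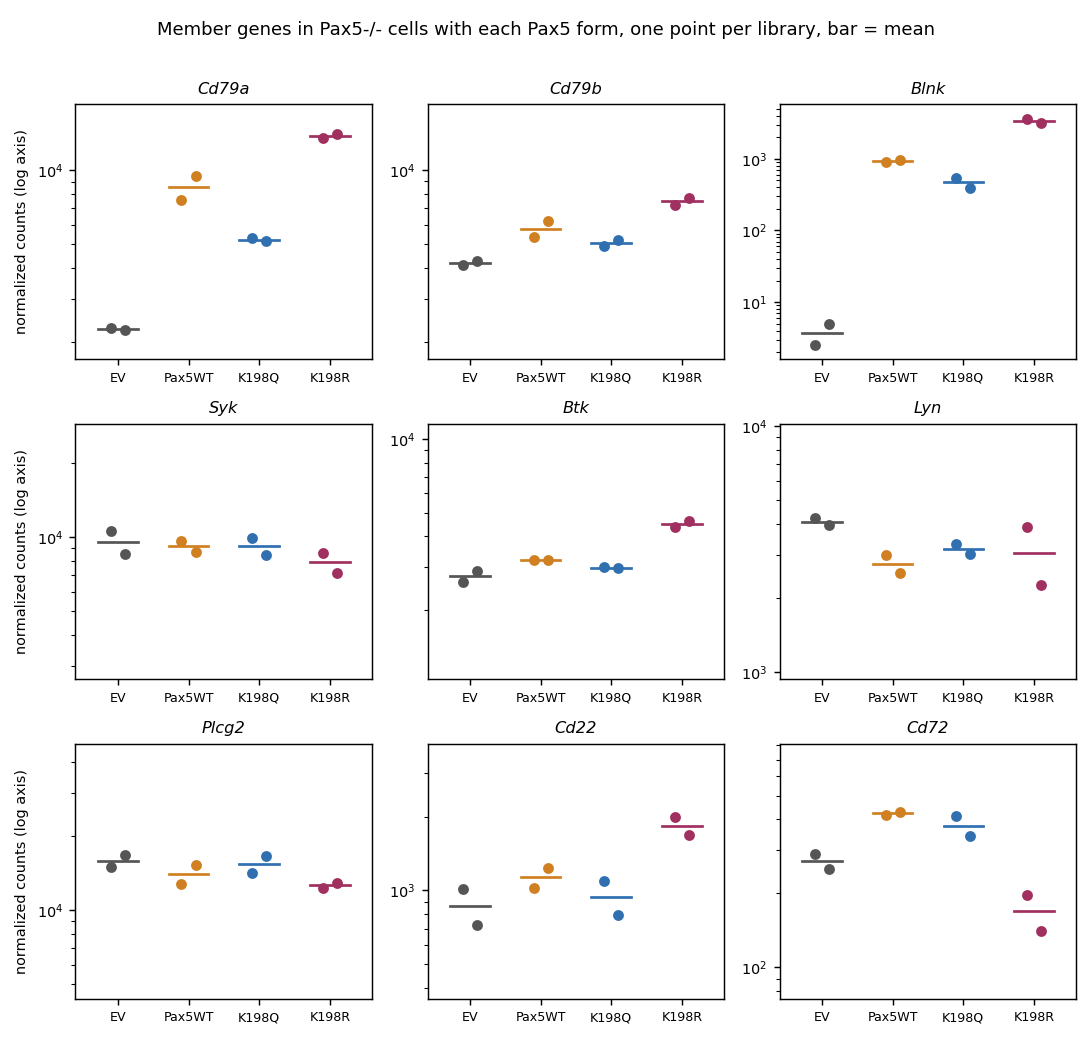
Normalized counts (log axis) of the 9 genes in Pax5-/- cells carrying EV, Pax5WT, K198Q or K198R, with 1 point per library and a bar at the mean of 2. K198R is highest for Cd79a, Cd79b, Blnk, Btk and Cd22 and lowest for Cd72.

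The forms were then compared with each other. K198Q against Pax5WT gave 0 of 9 members called, where 0.0225% of all tested genes were called, with 462 genes at an unadjusted p under 0.05. Blnk (-1) and Cd79a (-0.7 on the log2 scale) had the largest differences of the 9 in that comparison. Each K198Q library was below each Pax5WT library for Blnk, Cd79a, Cd79b, Btk and Cd72, and above for Lyn. The share of all genes without overlap was not counted. Under the block Cd79a was called in that comparison (adjusted p = 0.0471, limma), beside 0.217% of genes. K198R against Pax5WT gave 3 members called higher and 1 lower, with 0.772% of genes called higher, 2.1% lower and 2.87% called in all. Blnk was 3.6-fold higher (log2 fold change 1.84, SE 0.268, adjusted p = 0.015), Cd79a 1.62-fold (0.71, adjusted p = 0.0204) and Btk 1.4-fold (0.49, adjusted p = 0.0309, limma). Cd72 was 2.51-fold lower (log2 fold change -1.34, SE 0.208, adjusted p = 0.0185, limma). These 4 calls were lost when either Pax5WT library or the second K198R library was left out, with the direction kept. Without a variance trend those of Cd79a (adjusted p = 0.0673) and Btk (adjusted p = 0.0852) were lost, and that of Btk also without the filter (adjusted p = 0.0516, limma). With the replicate block 6 members were called beside 7.52% of genes, the added calls being Cd79b (0.37, adjusted p = 0.0118) and Cd22 (0.7, adjusted p = 0.0496, limma), both higher with K198R. K198R against K198Q gave 5 members called higher and 1 lower, with 1.45% of genes called higher, 3.55% lower and 5.01% called. There Blnk was 7.12-fold, Cd79a 2.65-fold, Cd22 1.94-fold, Btk 1.5-fold and Cd79b 1.47-fold higher, and Cd72 was 2.23-fold lower (log2 fold change -1.16, SE 0.208, adjusted p = 0.022, limma). Only 2 of the 6 were called when either K198Q library or the second K198R library was left out. Cd22 was also not called in that comparison without the first K198R library (adjusted p = 0.121), without the filter (adjusted p = 0.0911), without a variance trend (adjusted p = 0.108) or with total-sum scaling (adjusted p = 0.0604), nor Cd79b without a variance trend (adjusted p = 0.0648, limma). The block called 7 members beside 13.1% of genes, Plcg2 being the addition. The Pax5 RNA of these groups stood in the same order as Blnk for K198R and not for the other 2 forms, since K198Q libraries held more Pax5 RNA and less Blnk than Pax5WT libraries.

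Of the 54 other pathway genes 52 were tested in Pax5-/- cells. Genes raised by Pax5WT included Cr2, Igll1 and Vpreb3, and those lowered were Lat2, Ptpn6 and Rasgrp3. Genes raised by K198Q included Igll1 and Vpreb3, and none was lowered. K198R raised 11 and lowered 4, where 3.87% of all tested genes were called higher and 6.05% lower. Vpreb3, a protein that associates with the pre-BCR, was at 733 and 813 normalized counts with EV, 4163 and 5199.7 with Pax5WT, 3471 and 3158 with K198Q and 7165 and 6959 with K198R. Siglecg, an inhibitory lectin, was at 23.7 and 32 with EV and at 25.3 and 19.6 with Pax5WT, and rose only with K198R among the forms, to 453 and 394 (4.19 on the log2 scale against Pax5WT, SE 0.302, adjusted p = 0.0029, limma). Fcgr2b, an inhibitory Fc receptor, was likewise higher with K198R than with Pax5WT (4164 and 3297 against 1331 and 1238). Rasgrp3, which activates Ras downstream of the receptor, fell from 1939 and 2077 with EV to 851 and 1166 with Pax5WT and to 329.7 and 243 with K198R. The list medians were -0.09, -0.05 and 0.01 for the 3 forms against EV, beside 0, -0.01 and 0.01 over all genes. With K198R 4 of 7 tested T cell markers (Cd247, Cd3g, Thy1 and Zap70) and 2 of 4 NK cell markers were called lower than with EV. The summed NK cell level was 1232 and 1111 with EV and 327 and 168 with K198R, and that of the feeder cell markers was 599 and 751 with EV and 706 and 846 with K198R. Their part in the results was not tested.

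**Figure D3:**
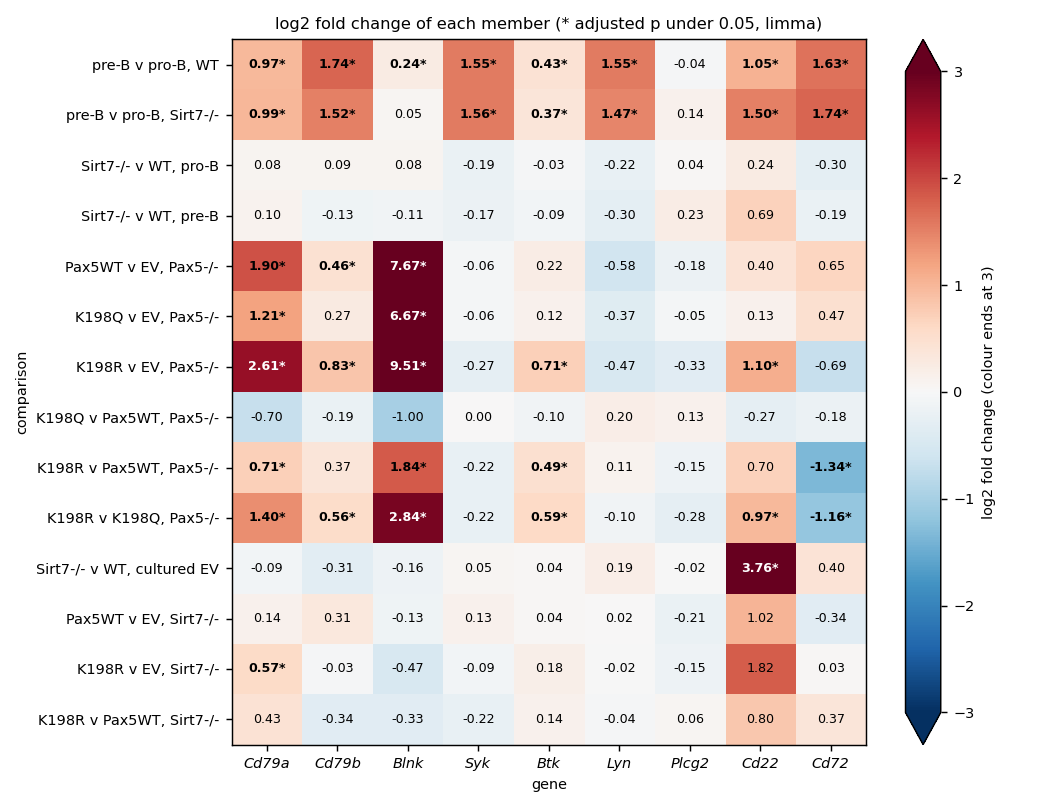
Log2 fold change of the 9 genes (columns) in 14 comparisons (rows), coloured from blue (lower) to red (higher) with the colour ending at 3, and an asterisk where the adjusted p was under 0.05. Most of the asterisks lie in the 2 stage comparisons and in the comparisons of K198R within Pax5-/- cells.

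ChIP-seq for Pax5 in the Pax5-/- cells that carried each form gave peaks over these genes and the 10 kb before their starts. With Pax5WT all 9 genes had a peak found in both replicates, beside 26.7% of protein-coding genes and 37% of those at least as long as the median member. With K198Q 8 genes did, all but Cd79b, beside 9.88% and 14.8%. With K198R 8 genes did, all but Cd79b, beside 30.6% and 41.7%. The lists held 10646 and 11830 peaks for Pax5WT, 3750 and 3957 for K198Q and 12158 and 13997 for K198R, so a peak missing in K198Q is missing from the shortest lists. Cd79b had a K198R peak in each list, but in different places. Peak names inside the second K198R list carry another replicate number than its label.

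The peaks fell into 35 regions, of which 18 had a peak in both Pax5WT replicates, 12 in both K198Q replicates and 17 in both K198R replicates. The strongest lay on Cd79a, Blnk and Cd22. At the start of Cd79a (chr7:24897147-24897699, mm10) the fold enrichment over input was 12.29 and 24.76 with Pax5WT, 4.89 and 7.42 with K198Q and 12.64 and 30.93 with K198R. The K198Q values were below all others there, and the replicates of the other 2 forms lay far apart. Another Cd79a region, at -930 bases from the start, had peaks in both K198Q (6.37 and 5.89) and both K198R (10.54 and 8.46) replicates but in only 1 of 2 Pax5WT replicates.

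Blnk had 4 regions with a peak in all 6 lists. The highest lay in an intron 31357 bases after the start (chr19:40962952-40963428, fold enrichment 18.18 and 26.49 with Pax5WT, 16.59 and 14.21 with K198Q, 20.45 and 23.13 with K198R). Another lay in an exon 318 bases after the GENCODE start, 4 bases after the RefSeq start, with 15.88 and 23.49, 10.13 and 12.05, and 18.3 and 21.29 for the same forms. Blnk was thus the gene with the lowest RNA level without Pax5 and the only one of the 9 with 4 regions present in every list. The main Cd22 region lay 1218 bases after the GENCODE start and at -96 bases from the RefSeq start (chr7:30878925-30879392), with 23.61 and 24.48 for Pax5WT, 8.62 and 8.81 for K198Q and 17.41 and 18.64 for K198R. Here the 3 forms did not overlap, and Pax5WT was the highest. In the RNA of the same cell type Cd22 was higher with K198R and was not called with Pax5WT.

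Cd72 had a peak 61 bases before its start in all 6 lists (chr4:43454503-43455088, 11.67 and 8.35 with Pax5WT, 6.19 and 6.77 with K198Q, 8.7 and 12.88 with K198R). Btk had its 1 region in all lists far inside an intron, 16830 bases after the start (chrX:134566589-134566900, fold enrichment between 3.66 and 9.61). Cd79b had a region 132 bases after its start with Pax5WT (8.54 and 8.94) and the first K198R replicate (6.1). Syk (275 bases after the start) and Lyn (545 bases after) each had 1 region in all 6 lists near the start, and Plcg2 had 1 in an intron 29887 bases after. All 3 of these genes carried peaks of every form while their RNA was called in no comparison among the forms without the replicate block. The lists were called separately and no signal was compared between them, so the fold enrichments are given as a description with no test.

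The sequence at or just before 5 of these summits is shown because the RNA of the 4 genes Cd79a, Blnk, Btk and Cd72 differed between K198R and Pax5WT and Cd22 between K198R and EV. Bases come from the GRCm38 (mm10) reference, run 5′ to 3′ on the strand of the gene, and leave out annotated exons, so that the Cd79a stretch ends just before its summit, which lies in an exon. Capitals mark the letters GTGAC, or GTCAC for the other strand, a part of the core of the Pax5 consensus.
Cd79a, before the start, chr7:24897307-24897380, plus strand: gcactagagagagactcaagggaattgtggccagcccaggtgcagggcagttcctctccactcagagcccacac
Blnk, intron, chr19:40963103-40963253, minus strand: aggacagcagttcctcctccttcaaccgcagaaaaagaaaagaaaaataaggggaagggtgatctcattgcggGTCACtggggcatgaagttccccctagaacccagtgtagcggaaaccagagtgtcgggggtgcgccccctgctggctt
Btk, intron, chrX:134566665-134566815, minus strand: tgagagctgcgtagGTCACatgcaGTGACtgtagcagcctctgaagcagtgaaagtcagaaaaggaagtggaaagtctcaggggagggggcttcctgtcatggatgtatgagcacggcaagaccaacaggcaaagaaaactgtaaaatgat
Cd22, before the RefSeq start, chr7:30879049-30879176, minus strand: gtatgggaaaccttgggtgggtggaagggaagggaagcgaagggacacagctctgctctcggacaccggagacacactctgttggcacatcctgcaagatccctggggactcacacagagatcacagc
Cd72, before the start, chr4:43454629-43454764, minus strand: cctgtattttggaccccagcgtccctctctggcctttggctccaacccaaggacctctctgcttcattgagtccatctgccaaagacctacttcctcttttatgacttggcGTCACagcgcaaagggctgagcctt

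In the Blnk intron window shown the match was centred on the summit, in Cd72 it lay 38 bases after the summit and in Btk both matches lay upstream of it. The windows of 151 bases at the Cd79a start and at the main Cd22 region held none, while the window of the other Cd79a region, at -930 bases from the start, held 1 match at -12 bases from its summit. Of the other 3 Blnk windows only that at -1809 bases from the start held a match. Over the 20 member regions with a peak in both replicates of a form, 7 windows (35%) held GTGAC on either strand, beside 34.8% of 7908 Pax5WT peaks found in both replicates and 28.1% of the 151 bases before the start of 32851 RefSeq promoters. The longer core GCNTGAC was in 0 of the 20 windows, beside 14.2% of the Pax5WT peaks and 5.78% of promoters. The short motif is part of the longer core when N is G, and both were chosen with the peaks known. An absent match says only that these letters are not in the window.

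**Figure D4:**
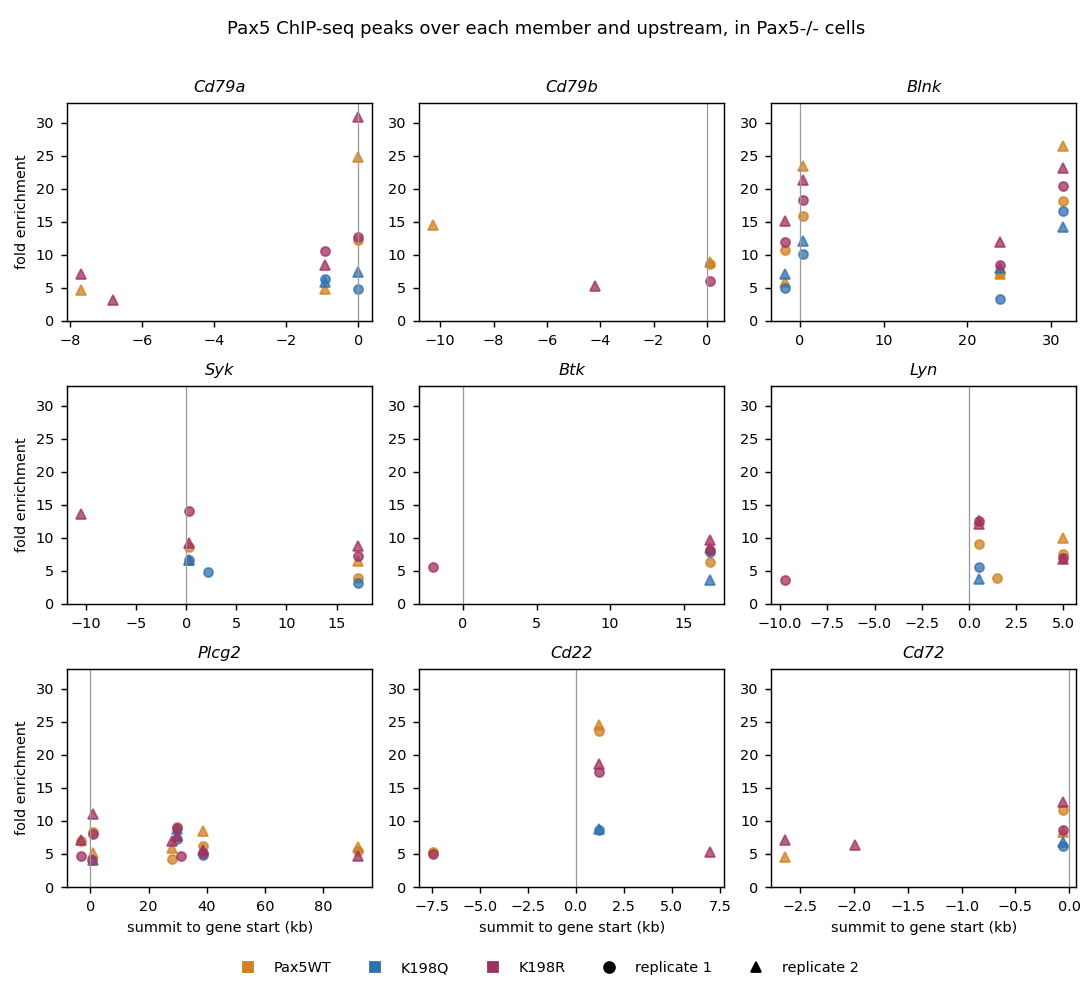
Fold enrichment over input (vertical axis) of each Pax5 ChIP-seq peak against the distance of its summit from the GENCODE gene start in kb (positive values run into the gene), for the 9 genes, 3 forms (colours) and 2 replicates (circles and triangles). The highest points are at the Cd79a start, in Blnk near its start and in an intron, and near the Cd22 start, where the K198Q points lie lowest.

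In cultured WT and Sirt7-/- pro-B cells 1 of the 9 genes was called for genotype, where 0.41% of tested genes were called higher and 0.557% called in all. That gene was Cd22, at 113 and 303 normalized counts in WT EV and at 1739 and 3649 in Sirt7-/- EV, a 12.9-fold difference of the means (log2 fold change 3.76, SE 0.547, adjusted p = 0.0351, limma). Both Sirt7-/- libraries were above both WT libraries, by 5.73-fold or more. The call was lost without the first WT EV library (3.05, adjusted p = 0.0844) and without either Sirt7-/- EV library (4.29 and 3.22, adjusted p = 0.0846 and 0.222, limma). It was also lost without the filter (adjusted p = 0.0893) and without a variance trend (adjusted p = 0.113, limma). Its counts may include reads of its antisense neighbour Gm29439, which was not examined.

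Cd22 was higher still with a Pax5 form in Sirt7-/- cells, at 3810.5 and 6831 with Pax5WT and at 6611 and 11907 with K198R, but neither difference from EV was called without the replicate block. With it the differences from EV were called for Pax5WT (1.02, adjusted p = 0.0208) and K198R (1.82, adjusted p = 0.000467), and so was that of K198R from Pax5WT (0.8, adjusted p = 0.0341, limma). In all 4 groups the second library held the higher value. Markers of immature and mature B cells moved in the same direction: Ighd was at 814 and 899 in WT EV, 2174 and 3045 in Sirt7-/- EV, 5115 and 12225 with Pax5WT and 10319 and 25102 with K198R. The summed level of the 9 markers in the table was 1990.4 and 2129.6 in WT EV and 16345 and 43912 with K198R, with Ighd the most abundant and none of the list at 0 in the K198R libraries. Il2ra, the CD25 chain, was at 538 and 416 with EV and fell to 74.7 and 79.2 with K198R. The part of maturing cells in the Cd22 difference was not tested.

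The other 8 genes differed little between cultured genotypes. Their log2 differences between Sirt7-/- EV and WT EV lay between -0.31 (Cd79b) and 0.4 (Cd72) with none called. For Syk, Lyn, Plcg2 and Cd72 the libraries of neighbouring groups overlapped throughout the order of the 4 means. In Sirt7-/- cells Pax5WT against EV gave 0 of 9 called (0.0366% of genes called, 1353 at an unadjusted p under 0.05), and K198R against EV gave Cd79a higher (2.09% of genes called higher and 4.83% called). Cd79a was at 27964 and 27604 normalized counts with EV, 30767 and 30373 with Pax5WT and 39232 and 43351 with K198R (0.57 against EV, SE 0.1, adjusted p = 0.022, limma). The 4 K198R and EV libraries did not overlap, and the call was lost when any 1 of them was left out, with differences of 0.5 to 0.64, and without a variance trend (adjusted p = 0.055, limma). With the replicate block 1 member was called for Pax5WT against EV (1.96% of genes called), 3 for K198R against EV (11.6%) and 1 for K198R against Pax5WT (2.3%). K198R against Pax5WT called 0 of 9 (0.425% of genes called, 1199 at an unadjusted p under 0.05).

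Blnk, which was nearly absent from Pax5-/- cells with EV, was abundant in all of these groups. It was at 14911 and 13544 in WT EV, 12671 and 12685 in Sirt7-/- EV, 12903 and 10361 with Pax5WT and 9600 and 8783 with K198R, with no call without the block. With the replicate block K198R was called lower than EV (-0.47, adjusted p = 0.0198, limma). Both K198R libraries were the lowest of the 8, and the next value was 10361. Btk was at 4345 to 4727 in the 4 EV libraries and at 5193 and 5204 with K198R, with no call. Pax5 RNA was already at 25995 and 37113 normalized counts in Sirt7-/- EV cells and at 38690 and 45426 with K198R. Among the 52 other pathway genes tested, Pik3ap1, an adaptor for phosphoinositide 3-kinase, was higher in Sirt7-/- EV than in WT EV cells (9374 and 10133 against 6156 and 5262). K198R in Sirt7-/- cells raised Itpr3 and lowered Vpreb3, Blk, Dok3 and Pik3r1 against EV. Vpreb3, which rose with every form in Pax5-/- cells, was at 11064 and 11029 with EV and at 3822 and 4876 with K198R in Sirt7-/- cells.

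**Figure D5:**
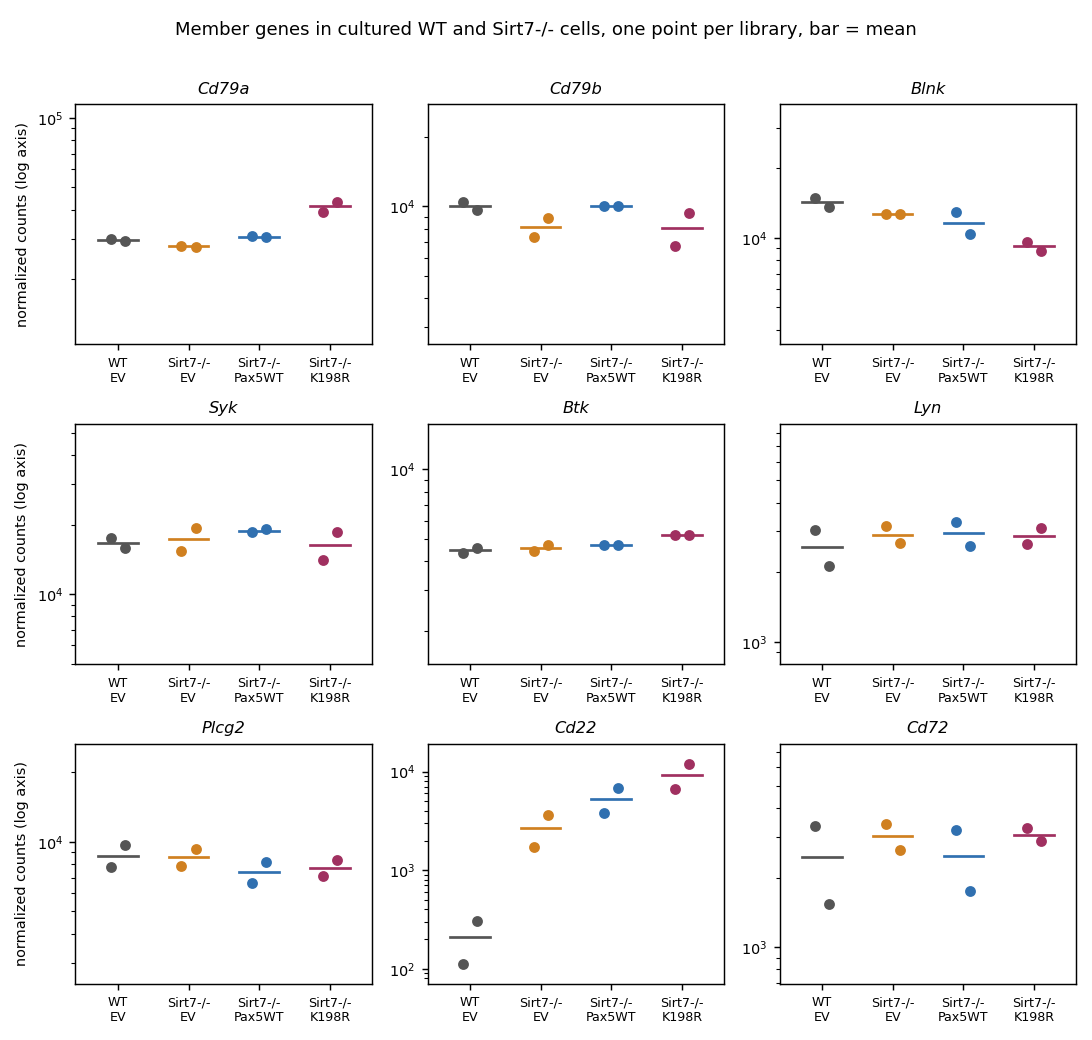
Normalized counts (log axis) of the 9 genes in cultured WT cells with EV and Sirt7-/- cells with EV, Pax5WT or K198R, with 1 point per library and a bar at the mean of 2. Cd22 climbs across the groups from 113 to 11907, while the other 8 genes stay within a narrow range.

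Over all 24 libraries, with each table centred and scaled on its own, the genes most like each member were listed as a description, since libraries share tables and groups. Those for Cd79a included Cr2 (r = 0.91) and Ceacam1 (0.9). They were for Cd79b Cd55 (0.96), Prkcb (0.94) and Mylip (0.92), and for Blnk Akap12 (0.94), Sec63 (0.93) and Il16 (0.93), out of 10575 genes. For Syk they were Thap6, Cdc14b and Clk1 (0.91 to 0.9), for Btk Galnt10, Klhl14 and Scd1 (0.93 to 0.89) and for Lyn E4f1, Sp140 and St3gal1 (0.93 to 0.89). Cd22 was most like Tfeb (0.92) and Cd72 most like Phc3 (0.91). Plcg2 had the weakest neighbours (Itpk1, 0.78). Among the members the closest pairs were Cd79a with Btk (0.86), Btk with Cd22 (0.78) and Cd79a with Cd22 (0.77), and Plcg2 with Cd79a was the lowest (-0.27).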

How the data were processed

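The authors quantified RNA-seq reads with Salmon against mm10 and deposited gene counts divided by DESeq2 size factors, used here as a normalized signal, in 3 tables normalized separately. The authors called Pax5 ChIP-seq peaks per replicate against input with MACS2 after Bowtie2 alignment, and deposited fold enrichment as a ratio and q-values as −log10. In the table of sorted cells, 100% of values came out as whole reads after division by 1 factor per library (tolerance 0.01). In Pax5-/- cells 1.78% did and in the cultured WT and Sirt7-/- cells 1.96%, so no reads were recovered there. Values were tested as log2(value + 1) with limma 3.58.1 (variance trend, all 4 groups of a table in 1 fit) on rows that reached 10 normalized counts in 2 or more libraries, 17649, 13345 and 13651 genes, with Benjamini-Hochberg adjustment over all of them and a threshold of 0.05. With 2 libraries a group, an exact permutation test cannot go below p = 0.33, and p-values measure the spread between these samples, which in cultured cells may be technical. The scripts were tested on simulated data. A peak counted when it lay over the gene or 10 kb upstream and overlapped a peak of the other replicate by 1 base. All 9 members are named, with statistics where called, and other pathway genes where called. Members and lists were chosen with earlier results of these data known. Pro-B and pre-B libraries of a sorted group come from the same mouse by their descriptions, and their deviations correlated by 0.08 in WT and 0.156 in Sirt7-/-. The study made replicates on different days, without saying that a number marks a day. Deviations of same-numbered libraries correlated by 0.264 to 0.383 in Pax5-/- and by 0.156 to 0.428 in the other cultured cells, in every pair of groups, and the blocked fit is given where it changes a call. Alternatives were a pseudocount of 10, no filter, total-sum scaling, no variance trend, leaving out libraries, a replicate block, a log2 fold change of at least 1.5, edgeR 4.0.16 and DESeq2 1.42.0 on the recovered reads of sorted cells, and other peak rules. Input libraries were not used here, and a few pathway genes are not reported here. Genes were located with GENCODE vM21.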

Additional observations from a re-analysis of the deposited data

Results flagged for a closer look

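For some genes the sign of the difference was opposite in different cells, with no overlap between the libraries of the groups compared. Such a separation of 2 libraries from 2 has p = 0.33 in an exact permutation test. The share of all genes that meet this rule was not counted. The differences between tables were not tested, since the tables were normalized separately. Blnk with K198R against EV was 9.51 on the log2 scale in Pax5-/- cells and -0.47 in Sirt7-/- cells, and K198R against Pax5WT was 1.84 and -0.33 in the same cells. The Sirt7-/- cells still carry their own Pax5 gene and come from another mouse strain than the Pax5-/- cells. Blnk in Sirt7-/- against WT was 0.08 in sorted pro-B, -0.11 in sorted pre-B and -0.16 in cultured cells. The first 2 of these belong to 1 fit, where the difference was not called (adjusted p = 0.923, limma). Cd79b with K198R against Pax5WT was 0.37 in Pax5-/- cells and -0.34 in Sirt7-/- cells, and in Sirt7-/- against WT it was 0.09 in sorted pro-B and -0.31 in cultured cells. Of these values only the 2 of Blnk in Pax5-/- cells were called without the replicate block. With it Blnk with K198R against EV in Sirt7-/- cells (-0.47) and Cd79b with K198R against Pax5WT in Pax5-/- cells (0.37) were called too.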

How the results depend on the processing

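No called fold change of a member changed direction under the alternatives run. Some differences that were not called did turn when a library was left out. Lyn with K198R against Pax5WT in Pax5-/- cells was 0.11, but its second K198R library (2250.3) was below both Pax5WT libraries (2978 and 2524). Syk in Sirt7-/- EV against WT EV was 0.05, but its first Sirt7-/- EV library (15350.5) was below both WT EV libraries (17526 and 15847). Leaving out 1 library at a time, the genes called ranged from 0 to 14 for genotype in pro-B (11 with all libraries), 16 to 195 in pre-B (15), 4700 to 5259 for stage in WT (7090), 3720 to 5857 in Sirt7-/- (6293) and 0 to 14 for the interaction (1). In Pax5-/- cells they ranged from 89 to 168 for Pax5WT against EV (434), 31 to 70 for K198Q (123), 567 to 1477 for K198R (1324), 0 to 1 for K198Q against Pax5WT (3), 21 to 573 for K198R against Pax5WT (383) and 32 to 916 for K198R against K198Q (668). In cultured cells they ranged from 3 to 66 for genotype (76), 1 to 5 for Pax5WT against EV (5), 63 to 225 for K198R against EV (659) and 2 to 13 for K198R against Pax5WT (58). Members called ranged from 5 to 6 for stage in WT (8), 6 to 7 in Sirt7-/- (7), 2 to 2 for Pax5WT against EV (3), 4 to 6 for K198R against EV (5), 0 to 4 for K198R against Pax5WT (4), 2 to 5 for K198R against K198Q (6), 0 to 1 for cultured genotype (1) and 0 to 0 for K198R against EV in Sirt7-/- cells (1). Fewer samples were fitted in each. Over the alternatives run on called member fold changes, 67 values lost the call and 296 kept it.

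With a log2 fold change of at least 1.5, stage called 2451 genes and 4 members in WT and 1809 and 3 in Sirt7-/-, Pax5WT 203 genes, K198Q 1 member, and K198R 612 genes and 2 members. DESeq2 called 126, 720 and 104 genes for genotype in pro-B, in pre-B and the interaction, and edgeR 5 for genotype in pre-B, with no member called by either. A pseudocount of 10 gave 5 for genotype in pre-B, 9 for K198Q against Pax5WT and 12 for Pax5WT in Sirt7-/- cells. Without the filter the calls were 260 for Pax5WT and 73 for K198Q against EV, 231 and 387 for K198R against Pax5WT and K198Q, and in cultured cells 44 and 0 members for genotype, 423 for K198R against EV and 16 against Pax5WT. Without a variance trend they were 44 for genotype in pre-B, 18 for the interaction, 274 and 81 for Pax5WT and K198Q against EV, 2 members for K198R against Pax5WT, 0 members for cultured genotype, 9 for Pax5WT, 370 and 0 members for K198R against EV and 27 against Pax5WT in Sirt7-/- cells. The causes were not tested. Total-sum scaling moved the median of all genes by -0.1 to 0.04.

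The replicate block changed no member call in sorted cells, with 7 genes called for genotype in pre-B and 0 for the interaction. Each mouse has 1 genotype, so pairing by mouse bears on stage and the interaction only. For genotype the libraries come from different mice that share no more than a replicate number. In Pax5-/- cells the replicate block ended no member call and called 1343, 363 and 2834 genes for Pax5WT, K198Q and K198R against EV (8 members for K198R), 29 and 1 member for K198Q against Pax5WT, 1004 for K198R against Pax5WT and 1749 against K198Q. In cultured WT and Sirt7-/- cells the block called 288 for genotype, 268 and 1 member for Pax5WT, 1588 and 3 members for K198R against EV and 314 and 1 member against Pax5WT. Within 1 kb of the gene start 5 members had a K198Q peak in both replicates, a narrower window by construction, and leaving out either list gave 9, 8 and 9 members for Pax5WT, K198Q and K198R. The read depth of the cultured tables is unknown, so no interval was given for Blnk with EV.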
